A study of Mus musculus with 8 samples.

Results

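The SoxC, SoxD and SoxE genes encode transcription factors that share the HMG box of Sox2 but belong to other branches of the Sox family. All 9 mouse members (SoxC: Sox4, Sox11 and Sox12; SoxD: Sox5, Sox6 and Sox13; SoxE: Sox8, Sox9 and Sox10) were picked by symbol and found among the 22180 genes measured. Their levels were set side by side in the Sox2-positive and Sox2-negative fractions of mouse medulloblastomas.

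The tumours came from Patched1+/- mice with a Sox2eGFP reporter, offspring of Patched1+/- CD1 and Sox2eGFP B6 parents, which are heterozygous for the Hedgehog receptor Patched1 and form Hedgehog-driven tumours of the cerebellum. All animals were irradiated with 3 Gy at birth, and were over 70 days old when tumours were taken at signs of disease. Both fractions were depleted of CD45-positive and Ter119-positive blood cells and then sorted by eGFP. The Sox2-positive group (eGFP-positive) and the Sox2-negative group (eGFP-negative) each had 4 microarrays, and each array held RNA of a pool of 3 tumours. A p-value therefore measures the spread between pools and not between single animals. The groups are defined by the reporter, and neither fraction is a single cell type. Arrays correlated at 0.981 to 0.987 within the Sox2-positive group, at 0.973 to 0.984 within the Sox2-negative group and at 0.942 to 0.968 between them.

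All Sox proteins bind the minor groove of DNA through the HMG box and bend it, and most need a partner factor to activate genes. SoxE factors act in neural crest and glia: Sox9 is needed for the switch of neural stem cells to making glia, Sox10 for the terminal differentiation of oligodendrocytes, and Sox8 overlaps with both. SoxD factors lack an activation domain of their own and tune the others, with Sox5 and Sox6 holding back precocious differentiation of oligodendrocyte progenitors. SoxC factors act in newly formed neurons, where Sox4 and Sox11 turn on neuronal genes, and Sox12 overlaps with them.

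The sequence upstream of the start site is shown for the 3 SoxC genes, of which 1 passed the test in the arrays, and for Sox8, the SoxE gene that was higher and for which a sequence was at hand. Each is the 250 bases before the RefSeq start on GRCm38.p6, 5′ to 3′ on the strand of the gene, which is the minus strand for all 4. Capitals mark matches on either strand to the GC box GGGCGG, the CCAAT box CCAAT or the E-box CAGCTG. Sox4 lies at chr13:28953700-28953949, Sox11 at chr12:27342719-27342968, Sox12 at chr2:152398047-152398296 and Sox8 at chr17:25570687-25570936.
Sox4: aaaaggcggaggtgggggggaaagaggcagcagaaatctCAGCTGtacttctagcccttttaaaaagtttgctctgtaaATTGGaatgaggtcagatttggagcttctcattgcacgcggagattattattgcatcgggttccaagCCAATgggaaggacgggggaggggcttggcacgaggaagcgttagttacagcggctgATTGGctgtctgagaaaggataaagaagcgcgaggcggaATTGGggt
Sox11: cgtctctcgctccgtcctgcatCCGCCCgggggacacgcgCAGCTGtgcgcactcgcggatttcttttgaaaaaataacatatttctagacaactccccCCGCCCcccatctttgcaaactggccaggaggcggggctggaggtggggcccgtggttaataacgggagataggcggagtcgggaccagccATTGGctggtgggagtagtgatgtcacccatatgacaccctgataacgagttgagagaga
Sox12: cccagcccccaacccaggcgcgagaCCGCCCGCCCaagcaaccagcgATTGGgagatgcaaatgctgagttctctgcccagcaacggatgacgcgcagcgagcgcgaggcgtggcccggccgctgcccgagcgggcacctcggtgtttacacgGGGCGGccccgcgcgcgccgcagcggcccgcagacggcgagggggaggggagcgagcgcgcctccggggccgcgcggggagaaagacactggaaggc
Sox8: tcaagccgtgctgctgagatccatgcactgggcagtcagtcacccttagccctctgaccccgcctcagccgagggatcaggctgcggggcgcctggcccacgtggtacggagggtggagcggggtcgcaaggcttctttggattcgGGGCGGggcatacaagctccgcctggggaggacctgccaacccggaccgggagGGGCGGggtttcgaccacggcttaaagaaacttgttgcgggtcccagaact

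The windows of Sox4 and Sox11 both held an E-box, a motif found in 13.0% of all 32851 RefSeq windows of this length. CCAAT boxes were found 4 times in Sox4 and 1 time each in Sox11 and Sox12, and 33.8% of all windows held at least 1. GC boxes were found 2 times in Sox11, 3 times in Sox12 and 2 times in Sox8, against 32.7% of all windows with at least 1, and in Sox12 a pair of them overlap. The Sox core ACAAT (27.7% of all windows), the Sox and Tcf core ACAAAG (16.5%) and the Gli site GACCACCCA (0.225%) had 0 matches in these 4 windows. Windows not shown were those of Sox5, Sox6 and Sox13. That of Sox5 held 1 Sox core, and that of Sox13 held none of these motifs. Sox6 had 6 windows, some with Sox cores and most with the Sox and Tcf core, and 6 windows give more room for a match than 1. The windows of Sox5 and Sox6 all lay inside the span of their gene, unlike those of the other genes. GC content was 50.8% for Sox4, 58.0% for Sox11, 74.4% for Sox12 and 65.6% for Sox8, against a median of 52.4%. In all, 7 of the 9 genes were in the RefSeq promoter table, and Sox9 and Sox10 were not. A match is a run of letters and not a bound site.

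The 9 genes did not move as 1 block or by subfamily: 3 were higher and 1 was lower in Sox2-positive cells, and 5 did not pass the test (limma, Benjamini-Hochberg adjusted p under 0.05 over all 22180 genes). Of all genes tested, 8.47% passed in either direction, 5.96% higher and 2.52% lower. At an unadjusted p under 0.05 by limma there were 4454 of the 22180 genes, the background for the unadjusted counts given below. Sox10 and Sox8 of the SoxE group and Sox6 of the SoxD group rose, and Sox11 of the SoxC group fell. Sox9, Sox5, Sox13, Sox4 and Sox12 did not pass. Values are on the log2 scale of the deposited data, where 1 unit is a doubling. Levels are compared within a gene only, because probe sets differ in brightness.

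**Figure D1:**
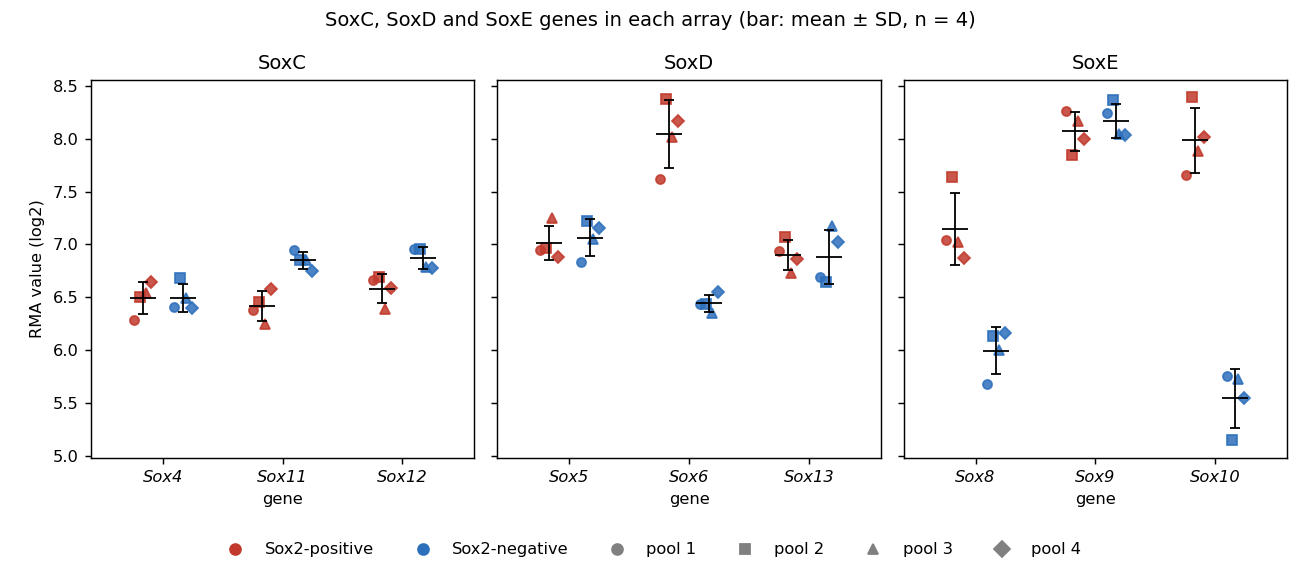
RMA values (log2, vertical axis) of the 9 genes in each array, by subfamily; red is Sox2-positive, blue Sox2-negative, symbols give the pool number, and bars are mean ± SD (n = 4). Sox10, Sox8 and Sox6 have all red points above all blue points, Sox11 and Sox12 have all red points below, and the other 4 genes overlap.

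Sox10, the SoxE factor of oligodendrocytes and neural crest, showed the largest difference of the 9. Its value was 7.66, 8.39, 7.88 and 8.01 in Sox2-positive pools 1 to 4, and 5.76, 5.15, 5.73 and 5.55 in Sox2-negative pools 1 to 4. Every Sox2-positive pool lay above every Sox2-negative pool, with 1.90 log2 units between the nearest arrays. The group means were 7.98 ± 0.31 and 5.55 ± 0.28 (SD, n = 4 each), a 5.42-fold difference (log2 difference 2.44, SE 0.16, limma adjusted p = 3.77e-07). Sox10 was at rank 43 from the highest of the 22180 log2 differences. Its 4 Sox2-negative values lay under 5.80, the upper quartile of 1390 olfactory and vomeronasal receptor genes taken as a guide to dim signal. Where a probe set is at background in 1 group, a fold understates the difference.

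Sox8, the SoxE factor whose roles overlap with those of Sox9 and Sox10, also rose. It was at 7.04, 7.64, 7.02 and 6.87 in Sox2-positive pools 1 to 4 and at 5.68, 6.14, 6.0 and 6.16 in Sox2-negative pools 1 to 4. The groups did not overlap, and the highest Sox2-positive value was again that of pool 2. The means of 7.14 ± 0.34 and 6.0 ± 0.22 (SD, n = 4 each) gave a 2.21-fold difference (log2 difference 1.15, SE 0.16, limma adjusted p = 0.000289). For Sox8, Sox2-negative pool 1 (5.68) lay under 5.80, the guide to dim signal, and the other arrays did not.

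Sox9, the SoxE factor of neural stem cells and astrocytes, did not follow the other SoxE genes. It was at 8.26, 7.84, 8.17 and 8.0 in Sox2-positive pools 1 to 4 and at 8.24, 8.36, 8.04 and 8.03 in Sox2-negative pools 1 to 4. The groups overlapped, and Sox2-positive pool 2, the highest for Sox10 and Sox8, was the lowest of all arrays for Sox9. The log2 difference was -0.10 (95% interval -0.34 to 0.14, limma adjusted p = 0.688). The interval lies apart from those of Sox8 (0.81 to 1.48) and Sox10 (2.09 to 2.78).

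Sox6, a SoxD factor that restrains the differentiation of oligodendrocyte progenitors, was the member of its group that rose. It was at 7.62, 8.37, 8.01 and 8.17 in Sox2-positive pools 1 to 4, and at 6.44, 6.44, 6.35 and 6.55 in Sox2-negative pools 1 to 4. The Sox2-negative pools were close together, with an SD of 0.08, and 1.07 log2 units separated the nearest arrays of the groups. The means of 8.05 ± 0.32 and 6.44 ± 0.08 (n = 4 each) gave a 3.03-fold difference (log2 difference 1.60, SE 0.13, limma adjusted p = 4.13e-06), at rank 137 of the 22180 genes.

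The other SoxD genes overlapped between the fractions. Sox5, the close relative of Sox6, was at 6.95, 6.97, 7.25 and 6.88 in Sox2-positive pools 1 to 4 and at 6.83, 7.22, 7.05 and 7.16 in Sox2-negative pools 1 to 4. Its log2 difference was -0.05 (95% interval -0.29 to 0.18, limma adjusted p = 0.845), apart from the interval of Sox6 (1.31 to 1.89). Sox13 was first described as an autoantigen of islet cells. It was at 6.94, 7.07, 6.73 and 6.86 in Sox2-positive pools 1 to 4 and at 6.69, 6.65, 7.17 and 7.02 in Sox2-negative pools 1 to 4. The Sox2-positive values of Sox13 lay within the range of the Sox2-negative ones (log2 difference 0.02, 95% interval -0.25 to 0.29, limma adjusted p = 0.964).

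Sox11, the SoxC factor of newly formed neurons, was the gene of the 9 that fell. It was at 6.38, 6.46, 6.25 and 6.58 in Sox2-positive pools 1 to 4 and at 6.95, 6.85, 6.85 and 6.75 in Sox2-negative pools 1 to 4. The groups did not overlap, though 0.17 log2 units separated the nearest arrays. The means were 6.42 ± 0.14 and 6.85 ± 0.09 (SD, n = 4 each), which left 74.0% of the Sox2-negative value (log2 difference -0.43, SE 0.09, limma adjusted p = 0.00988).

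Sox12, the third SoxC gene, was at 6.66, 6.69, 6.39 and 6.59 in Sox2-positive pools 1 to 4 and at 6.96, 6.96, 6.79 and 6.78 in Sox2-negative pools 1 to 4. The 4 Sox2-positive values all lay below the Sox2-negative ones, as did those of Sox11, but the test was not passed (log2 difference -0.29, 95% interval -0.50 to -0.09, limma adjusted p = 0.0842). With quantile normalization it passed (adjusted p = 0.0368). Sox4, which with Sox11 turns on genes of newly formed neurons, showed a different picture. It was at 6.29, 6.50, 6.54 and 6.65 in Sox2-positive pools 1 to 4 and at 6.41, 6.68, 6.49 and 6.40 in Sox2-negative pools 1 to 4. The groups overlapped, with a log2 difference of -0.002 (95% interval -0.22 to 0.22, limma adjusted p = 0.996). The other, dimmer probe set of Sox4 had a log2 difference of -0.02. The Sox4 interval lies above the Sox11 difference of -0.43, while the intervals of Sox11 (-0.64 to -0.23) and Sox12 overlap.

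**Figure D2:**
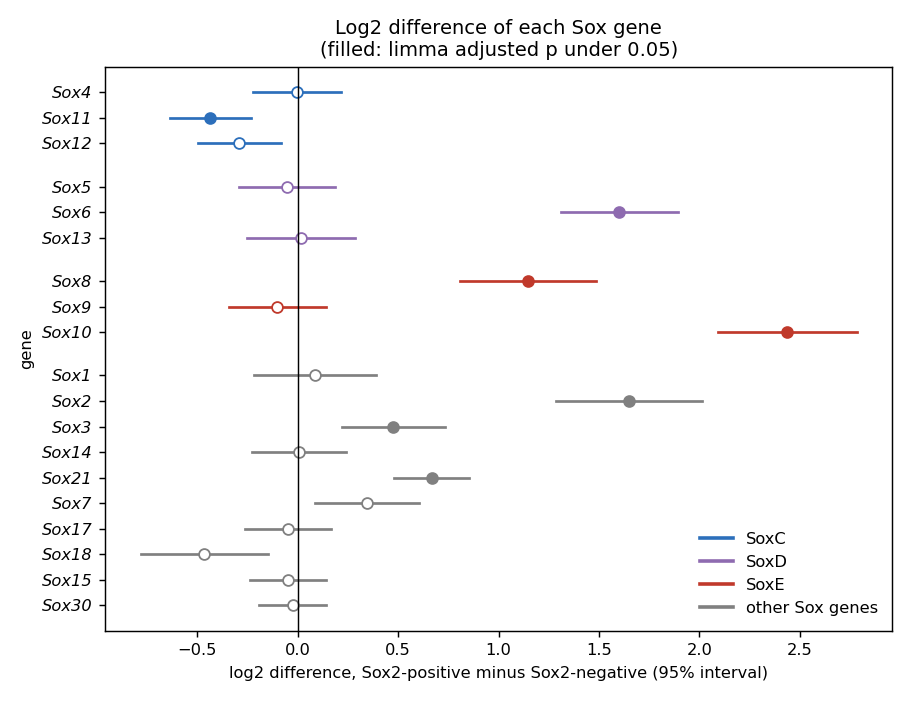
Log2 difference (Sox2-positive minus Sox2-negative, horizontal axis) with its 95% interval for the 9 genes and 10 other Sox genes; filled points passed the limma test at an adjusted p under 0.05. Sox10 (2.44), Sox6 (1.60) and Sox8 (1.15) stand to the right, Sox11 (-0.43) to the left, and each subfamily also holds at least 1 open point.

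By subfamily, 2 of 3 SoxE genes were higher with a median log2 difference of 1.15, 1 of 3 SoxD genes was higher with a median of 0.02, and 1 of 3 SoxC genes was lower with a median of -0.29. The median over all genes tested was -0.03. The differences ran from -0.10 to 2.44 within SoxE, from -0.05 to 1.60 within SoxD and from -0.43 to -0.002 within SoxC. Each subfamily held at least 1 member near 0: Sox9 in SoxE, Sox5 and Sox13 in SoxD, and Sox4 in SoxC. The spans between members were 2.54 log2 units for SoxE, 1.65 for SoxD and 0.43 for SoxC. The groups did not overlap for 5 of the 9 genes, against 13.7% of all genes. With 4 arrays against 4, the smallest p that an exact two-sided permutation test over the 70 splits can give is 0.0286, and Sox10, Sox8, Sox6, Sox11 and Sox12 each reached it, unadjusted. Between arrays of equal replicate number, Sox10, Sox8 and Sox6 were higher in 4 of 4 pairs and Sox11 and Sox12 lower in 4 of 4. Sox9, Sox5, Sox13 and Sox4 were higher in 2 of 4. For the 5 genes without overlap, the permutation p and the 4 of 4 pairs follow from that and add nothing to it. The labels do not say that equal numbers are the same tumours. In bulk samples such as these, fewer cells of a type and less RNA per cell cannot be told apart.

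The other 10 Sox genes served as a comparison. Of them, 3 were higher and 0 lower by limma (5 at an unadjusted p under 0.05, against 4454 of all 22180 genes). Sox2, the gene behind the reporter, was 3.13-fold higher (log2 difference 1.65, SE 0.17, limma adjusted p = 2.53e-05), which checks the sort and is no finding. Sox21, a SoxB2 gene that opposes SoxB1 factors in neural progenitors, was 1.59-fold higher, although its other probe set had a log2 difference of -0.01. Sox3, a SoxB1 relative of Sox2, was 1.39-fold higher (adjusted p = 0.0233). Leaving out any 1 of pools 2 and 4 of either fraction ended the Sox3 call (0.0620 to 0.0773). With dim genes left out Sox2, Sox3 and Sox21 were not tested. The endothelial SoxF genes Sox7, Sox17 and Sox18, named after their values were seen, did not pass. Sox18 was at 7.19 ± 0.28 and 7.65 ± 0.25 (log2 difference -0.46, adjusted p = 0.0724). In 4 of the 14 alternative fits 1 of these 10 genes was called lower.

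The arrays of the Sox2-positive group also differed among themselves. Pool 2 had the highest value of Sox10, Sox8 and Sox6, at 2.84, 1.64 and 1.93 log2 units above the Sox2-negative means, and the lowest of Sox9, at -0.33. The lowest values of Sox10 and Sox6 were those of pool 1, at 2.11 and 1.18 units above the Sox2-negative means. A mean over 6 genes of mature oligodendrocytes (Mbp, Mag, Mog, Mobp, Cldn11 and Cnp) was 6.19, 7.49, 6.42 and 6.80 in Sox2-positive pools 1 to 4 and ran from 5.80 to 5.99 in the Sox2-negative pools. Pool 2 was highest there too, and pool 1 was lowest, as for Sox10 and Sox6 but not for Sox8, whose lowest Sox2-positive value was that of pool 4. The part of these cells in the levels of Sox10, Sox8 and Sox6 was not tested. Without Sox2-positive pool 2 the calls of Sox10, Sox8, Sox6 and Sox11 stayed past the test.

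**Figure D3:**
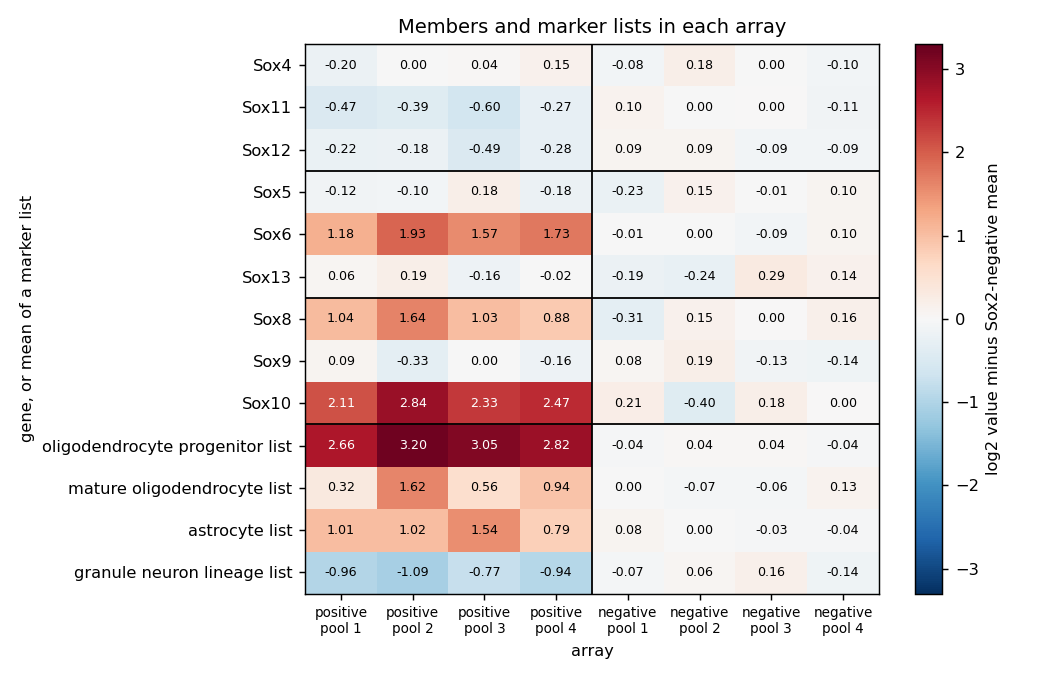
Log2 value minus the Sox2-negative mean (colour and number) for the 9 genes and for the mean of 4 marker lists, with 1 column per array. Positive pool 2 has the highest Sox10 (2.84), Sox8 (1.64) and mature oligodendrocyte (1.62) values, and the highest oligodendrocyte progenitor value too. Sox9, Sox5, Sox13 and Sox4 stay between -0.33 and 0.29 in all arrays.

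Lists of cell type markers were set beside the 9 genes. All 8 oligodendrocyte progenitor markers were higher in Sox2-positive cells (median log2 difference 2.77), and their mean level was 9.10 to 9.64 in the Sox2-positive and 6.40 to 6.48 in the Sox2-negative arrays. Of 6 mature oligodendrocyte markers 3 were higher and 0 lower (median 0.79), or 1 higher without Sox2-positive pool 4, and of 7 astrocyte markers 6 were higher and 0 lower (median 1.06). The astrocyte mean level was 7.0 to 7.75 in Sox2-positive and 6.16 to 6.29 in Sox2-negative arrays. All 8 granule neuron lineage markers were lower (median -0.83; mean level 7.74 to 8.07 against 8.69 to 8.99). The part of these cell types in the differences of the Sox genes was not tested.

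Other cell types were looked for as well, among them Schwann, neural crest and melanocyte cells, which use Sox10 outside the brain. Of 5 Schwann cell and neural crest markers measured (Egr2, Ngfr, Pmp2, Foxd3 and Dhh), 0 passed the limma test and 0 had an unadjusted p under 0.05. In both fractions the means of 4 of them were under 5.80, the guide to dim signal. Their mean level was 5.48 to 5.62 in Sox2-positive and 5.39 to 5.64 in Sox2-negative arrays. Of 6 melanocyte markers 0 passed (1 at an unadjusted p under 0.05; mean level 5.74 to 5.83 against 5.79 to 5.95). For 6 fibroblast and meningeal, 6 endothelial and 7 microglial markers the count was also 0 by limma (0, 1 and 1 at an unadjusted p under 0.05). In both fractions 4, 4 and 5 of these markers had means under 5.80, where a difference would be hard to see. Mean levels in Sox2-positive and Sox2-negative arrays were 5.16 to 5.32 and 5.27 to 5.37 for the first, 5.29 to 5.43 and 5.36 to 5.5 for the second, and 5.52 to 5.66 and 5.54 to 5.77 for the last. Of 4 ependymal and choroid plexus markers 0 passed (1 at an unadjusted p under 0.05), but Ttr, the transthyretin of the choroid plexus, had a log2 difference of -1.05 and passed with the replicate number as a block (adjusted p = 0.00504 against 0.119), or without Sox2-negative pool 1.

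Genes known to depend on or work with SoxE factors were mostly higher. Of 9 measured oligodendrocyte lineage genes linked to SoxE, 8 were higher and 0 lower (median log2 difference 1.68). Olig1, Olig2, Pdgfra and Cspg4 of this list were already counted among the progenitor markers above. Olig1 and Olig2, the bHLH factors of this lineage, were 16.1-fold and 10.9-fold higher, and Cspg4, the NG2 proteoglycan of progenitors, was 4.38-fold higher (limma adjusted p = 1.51e-09, 4.03e-08 and 1.47e-07). Of 7 myelin genes listed as dependent on SoxE factors, 4 were higher and 0 lower (median 0.88). The count was 2 higher when either positive pool 4 or negative pool 1 was left out. Mbp, Mag, Mog and Cnp of this list were already counted among the mature oligodendrocyte markers. Ugt8a, which makes the galactolipids of myelin, was 3.29-fold higher and Cnp, an enzyme of myelin, 3.27-fold higher. Myrf, the myelin regulatory factor that Sox10 induces, was 1.84-fold higher (adjusted p = 0.0452). That call ended without Sox2-positive pool 4 or any 1 of the Sox2-negative pools and with quantile normalization (adjusted p = 0.0531 to 0.111). Its Sox2-positive values were 6.67, 8.18, 6.76 and 7.21 in pools 1 to 4, with pool 2 highest again. The part of SoxE factors in the differences of these lists was not tested.

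Genes linked to Sox9 in the making of glia moved both ways, with 5 of 11 higher and 2 lower (median log2 difference 0.47). Among the higher genes, Glul only just passed, with overlapping groups (log2 difference 0.47, limma adjusted p = 0.04995). Slc1a3, the glutamate transporter of radial glia and astrocytes, was 4.46-fold higher, Zcchc24 was 2.85-fold higher and Mmd2 was 2.74-fold higher (limma adjusted p = 1.08e-05, 2.26e-05 and 1.23e-05). The last 2 are targets that Sox9 shares with the glial switch factor Nfia, and Slc1a3 is also among the astrocyte markers above. The lower members, chosen here after their values were seen, were Nfia and its relative Nfib, which fell by 0.43 and by 0.70 on the log2 scale (adjusted p = 0.0249 and 0.000208). When positive pool 3, negative pool 1 or negative pool 2 was left out, 1 of them was lower. Apcdd1, which also depends on Sox9, passed with the replicate number as a block (log2 difference 0.55, adjusted p = 0.00294 against 0.0962). Sox9 itself thus overlapped between fractions (log2 difference -0.10) while members of its list differed in both directions.

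Cartilage genes, which Sox9 drives together with Sox5 and Sox6 in the skeleton, did not pass. Of 12 such genes 0 were called by limma (3 at an unadjusted p under 0.05), with a median log2 difference of 0.03 and a range of -0.30 to 0.33, and 7 had means below 5.80 in both fractions. Acan, the cartilage proteoglycan aggrecan, had the largest difference (0.33, adjusted p = 0.107). With the replicate number as a block Col11a1 was higher (log2 difference 0.33, adjusted p = 0.0484 against 0.151). Without Sox2-negative pool 2, or with array weights, 1 of the 12 was lower.

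**Figure D4:**
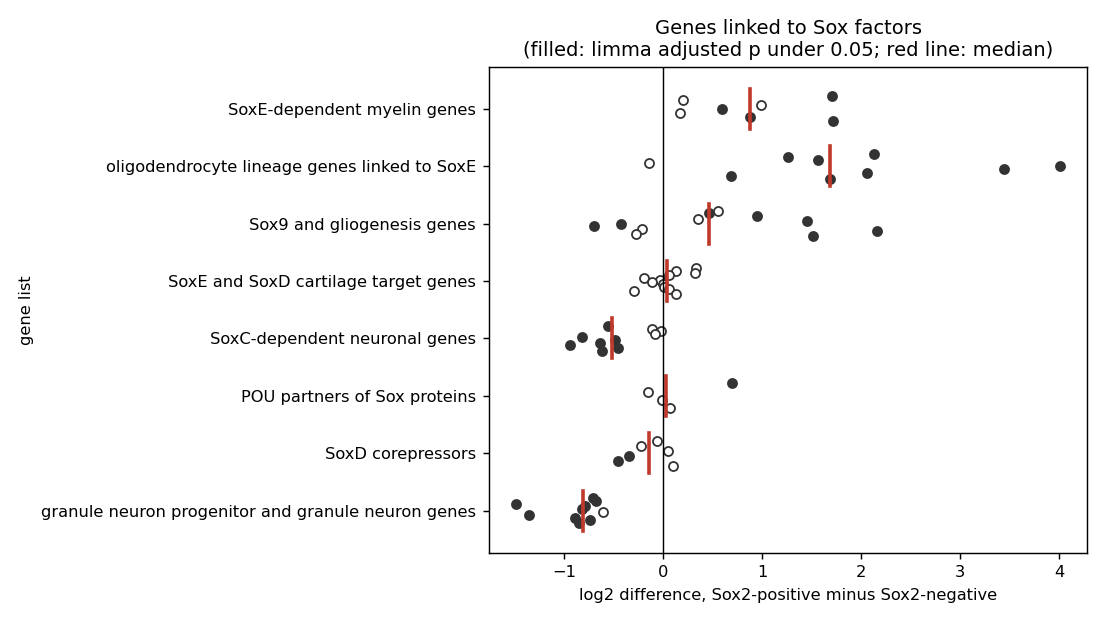
Log2 difference (horizontal axis) of each gene in 8 lists linked to Sox factors; filled points passed the limma test and the red line is the median of the list. Oligodendrocyte lineage genes (median 1.68) and myelin genes (0.88) lie to the right of 0, SoxC-dependent neuronal genes (-0.52) and granule neuron genes (-0.81) to the left, and cartilage genes around 0.

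Of 10 genes listed as neuronal and dependent on SoxC factors, 7 were lower and 0 higher (median log2 difference -0.52). Map2, Marcksl1 and Isl1 did not pass (-0.02, -0.08 and -0.11). Stmn2, a microtubule regulator of growing axons, fell by 0.94 (SE 0.20, limma adjusted p = 0.0101), Neurod1, a bHLH factor of granule neurons, fell by 0.82 (SE 0.19, adjusted p = 0.0155), and Stmn1, the related stathmin, fell by 0.64 (SE 0.12, adjusted p = 0.00302). The count fell to 3 without Sox2-positive pool 2 and to 4 without Sox2-negative pool 2, and the call of Neurod1 ended without Sox2-positive pool 2 (adjusted p = 0.0529). Tubb3, Tead2 and Dcx, which have been linked to Sox4 and Sox11, fell by 0.62, by 0.45 and by 0.56, and were named after their values were seen. The part of SoxC factors in the differences of the listed genes was not tested. Of 10 genes of granule neuron progenitors and granule neurons, the lineage from which these tumours arise, 9 were lower and 0 higher (median -0.81). Neurod1 is in this list and in that of SoxC-dependent genes, and the granule neuron lineage markers counted above are all in this list. Cntn2, an axonal adhesion protein, fell by 1.49, Nhlh1, a neuronal bHLH factor, fell by 1.35, and Pax6, a factor of granule neuron progenitors, fell by 0.90. The tenth gene, Neurod2, passed with the replicate number as a block (log2 difference -0.61, adjusted p = 0.00403 against 0.146).

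Partner and cofactor genes were listed as well. Pou3f1, a POU factor that acts with Sox proteins in glia, was 1.62-fold higher (log2 difference 0.70, SE 0.12, limma adjusted p = 0.00246), and the other 3 POU genes measured did not pass. Pou3f1 was not tested with dim genes left out. Of 6 corepressor genes listed for SoxD proteins 2 were lower and 0 higher. Tle1, a Groucho corepressor, fell by 0.46 (adjusted p = 0.0333) and Hdac2, a histone deacetylase, fell by 0.34 (adjusted p = 0.0364). The Tle1 call ended without any 1 of positive pools 2, 3 and 4 and negative pools 1 and 2, and with the mean of probe sets (adjusted p = 0.0556 to 0.106). The Hdac2 call ended without any 1 array other than that of negative pool 4 (0.0536 to 0.103).

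For the 4 genes that passed, the genes with the most similar values over the 8 arrays were found by the root mean square distance between values centred on each gene's own mean. Nearest to Sox10 were Bmp7, a secreted growth factor (distance 0.17 log2 units, 4.67-fold higher), the adhesion gene Dscam (0.19, 5.13-fold) and the lipoprotein receptor gene Lrp1 (0.20, 5.25-fold). Sox6 was followed most closely by the copper carrier gene Cp (0.09, 3.19-fold), the deubiquitinase gene Usp24 (0.09, 3.13-fold) and Pxdc1 (0.11, 2.84-fold). The nearest to Sox8 were Ppfibp1 (0.10, 2.40-fold), the NAD synthesis gene Nmnat2 (0.12, 2.11-fold) and the dynamin gene Dnm1 (0.14, 2.11-fold). Those nearest to Sox11 were Soga3 (0.05), Arhgef2, a microtubule-bound exchange factor (0.06), and Safb2 (0.07), which fell by 0.44, by 0.44 and by 0.37. The call of Arhgef2 ended without Sox2-negative pool 1 (limma adjusted p = 0.0536), and that of Safb2 ended in 7 of the 14 alternative fits (0.0587 to 0.134). Among the 9 genes themselves, Sox11 and Sox12 were the closest pair (0.11), and the pair Sox6 and Sox8 (0.32), from different subfamilies, was closer than Sox8 and Sox10 (0.72) or Sox8 and Sox9 (0.71). Distance grows with the size of a difference, so close genes are also those of like fold.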

How the data were processed

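RNA of 8 pools of sorted cells was measured on Affymetrix arrays. The authors deposited 1 log2 value per probe set and array; per the submitters' processing notes the software was Affymetrix Expression Console 1.2.0.20, with RMA for background, normalization between arrays and probe summary. That the scale is log2 follows from the range of values (2.51 to 13.6). Array medians lay between 5.83 and 5.88, and no 2 arrays held identical values. The number of arrays limits the precision. The build of the probe annotation is not given in the sources used here.

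Probe sets with 1 symbol in the platform annotation (23521 of 41345) were used, and the brightest on average stood for its gene. The log2 values went into limma 3.58.1 (R 4.3.3) with group as the only term, two-sided, adjusted over all 22180 genes. The procedure was tested on simulated data. That simulation gave each gene and array independent noise, so it does not cover effects shared between genes or pools. RMA compresses the folds of dim genes. Members, lists and rules were chosen with earlier results of these data known. From each list the 3 largest differences past the test were named, or the largest if none passed, and for each member that passed the 3 nearest genes, leaving out predicted models. Deviations from group means correlated at 0.164, 0.114, 0.177 and 0.241 between arrays of equal replicate number, taken from the labels and used as a block in an alternative. Between arrays of unequal number they correlated at -0.284 to 0.161, so the ranges overlap. Other alternatives left out each array, renormalized by quantiles, averaged probe sets, left out dim genes, and used a variance trend or array weights.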

Additional observations from a re-analysis of the deposited data

Results flagged for a closer look

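Of 86 groups of 4 values checked for the genes named, 5 had 1 value far from the other 3, where chance flags about 1 in 20. Olig2 was at 9.85 in Sox2-positive pool 3, with the next at 9.15. Pax6 was at 8.60 in Sox2-negative pool 4, with the next at 8.87. Ppfibp1 was at 8.68 in Sox2-positive pool 2, with the next at 8.14, and at 6.60 in Sox2-negative pool 1, with the next at 7.11. Bmp7 was at 5.94 in Sox2-negative pool 2, with the next at 6.48. None of the 9 SoxC, SoxD and SoxE genes was among them.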

How the results depend on the processing

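The calls of Sox10, Sox8, Sox6 and Sox11 kept their direction and stayed past the test in all 14 alternative fits, with log2 differences of 2.30 to 2.55, 0.98 to 1.24, 1.49 to 1.74 and -0.49 to -0.38. The count of lower members went from 1 to 2 with quantile normalization, which added Sox12. Differences near 0 changed sign: that of Sox4 ran from -0.0539 to 0.0652 when 1 array was left out and was 0.0320 with array weights, and the Sox13 log2 difference ran from -0.0614 to 0.114 when 1 array was left out and was -0.0464 with quantile normalization. The cause was not tested. With the replicate number as a block 4 of the 9 genes were called, as without it, while the genes called over the whole table went from 1879 to 2340. The block changed no other call than those of Apcdd1, Col11a1, Neurod2 and Ttr among the members and listed genes. Leaving out dim genes took Sox2, Sox3 and Sox21 out of the test. Signal near background limits the folds of dim genes, among them Sox10 in Sox2-negative cells.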
